A study of Mus musculus with 8 samples.

Results

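The genes of 8 enzymes that rebuild triglyceride from absorbed fat, Mogat2, Dgat1, Dgat2, Gpat3, Gpat4, Agpat2, Lpin2 and Lpin3, were followed in intestinal crypt organoids from MG53-TG and wild type (WT) mice. These genotypes are those of the labels and of a figure legend of the paper. Elsewhere the paper describes its crypt organoid transcriptome as from MG53-TG mice crossed with an Lgr5 knock-in line, with Lgr5 controls. They were chosen by name for their place in the pathway, out of 13081 genes with a value. The study asked how overexpression of MG53, a tripartite motif E3 ligase encoded by Trim72, changes the intestinal epithelium. Crypts were released with EDTA, embedded in Matrigel, cultured in IntestiCult OGM medium and passaged, and total RNA of 4 WT and 4 MG53-TG samples was sequenced. MG53-TG mice overexpress MG53 in the whole body, so the organoids cannot separate an effect of MG53 within the cultured cells from one that the crypts brought from the animal. The labels do not say whether the 4 samples of a group came from separate mice or cultures, so the p-values measure the spread between these samples, which may be technical. The values are FPKM of transcript events (transcription starts and ends), summed over the starts or over the ends of each gene. Read depth is unknown from such values. All 8 enzymes had a value in every sample.

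Dietary triglyceride is split in the gut lumen, and enterocytes take up fatty acids and monoacylglycerol and join them again in the endoplasmic reticulum. In the monoacylglycerol route, MOGAT2 adds a fatty acid to monoacylglycerol and gives diacylglycerol in a single step. In the glycerol 3-phosphate route, GPAT enzymes make lysophosphatidate, AGPAT enzymes make phosphatidate, and lipins remove its phosphate to give diacylglycerol. Both routes end with DGAT1 or DGAT2, which add the last fatty acid, and the product is packed into chylomicrons or stored in lipid droplets.

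The label of the groups was checked first. Trim72 had no entry in any of the 4 WT samples, while the MG53-TG samples had 16.4, 27.4, 31.9 and 36.5 FPKM. Over the 8 samples the summed start FPKM ranged from 269094 to 284330. Of 10254 genes tested, 4596 (44.8%) passed the threshold (limma with Benjamini-Hochberg adjustment, adjusted p of at most 0.05), 15.5% higher and 29.3% lower in MG53-TG, with a median log2 fold change of -0.17 over all genes tested. With median-of-ratios scaling, which moved that median by 0.16, 2106 genes were higher and 2091 lower, against 1592 and 3004 without it. Epithelial markers (Epcam, Cdh1, Vil1, Krt8, Krt18, Cdx1 and Cdx2) were present in both groups, with summed levels of 1931 to 2246 FPKM in WT and 1601 to 1716 FPKM in MG53-TG. Of the 7, 5 (Cdh1, Krt8, Krt18, Cdx1 and Cdx2) were lower in MG53-TG, Vil1 was higher and Epcam did not pass. The 4 endothelial markers had no entry in any sample.

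The enzymes of the monoacylglycerol route and of the last step rose most. In MG53-TG organoids the mean level of Mogat2 was 7.39 times, that of Dgat1 3.90 times and that of Dgat2 3.53 times the WT mean. In the glycerol 3-phosphate route, Gpat3 was 2.72 times and Agpat2 2.12 times the WT mean, whereas Gpat4 fell to 0.627 of it. Of the 7 genes found under their own identifier, 4 rose and 1 fell, against 15.5% higher and 29.3% lower of all genes tested. Lpin2 and Lpin3 did not pass the threshold. The median log2 fold change of the 7 genes was 1.00, against -0.17 over all genes tested. When events were assigned by exon coordinates, an alternative chosen after seeing the data and the only one that gives a value for Gpat3, 6 of the 8 genes passed, against 44.5% of the 10836 genes then tested. In 5 of the 8 genes the lowest MG53-TG sample exceeded the highest WT sample, and in Gpat4 all MG53-TG samples were below the WT range, against 15.7% and 29.1% of the genes tested.

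**Figure D1:**
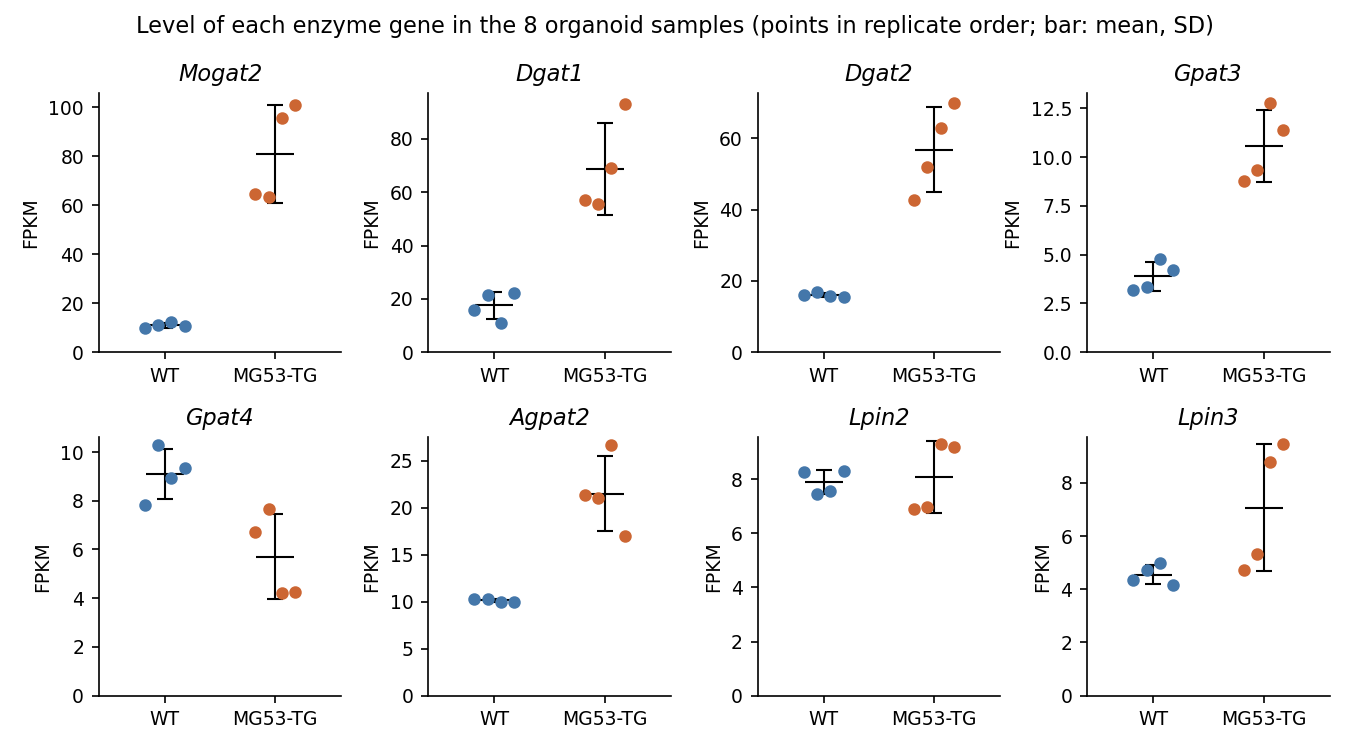
Level in FPKM (vertical axes, from 0) of each of the 8 enzyme genes in the 4 WT and 4 MG53-TG samples. Points are samples in replicate order, and the bars give the mean and SD. Mogat2, Dgat1, Dgat2, Gpat3 and Agpat2 lie higher in all 4 MG53-TG samples, Gpat4 lies lower, and Lpin2 and Lpin3 overlap.

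Mogat2, on chr7:99219084-99238619 (GRCm38, minus strand), encodes the intestinal monoacylglycerol acyltransferase. It was measured at 9.76, 11.1, 12.4 and 10.7 FPKM in WT samples 1 to 4 while the MG53-TG samples, in the same order, had 64.5, 63.3, 95.8 and 100.9 FPKM. The groups lay far apart, and MG53-TG samples 3 and 4 were above samples 1 and 2. The log2 fold change was 2.75 (SE 0.17, limma adjusted p = 8.86e-06), and 81 of the 10254 genes tested had a larger rise. In WT organoids 58.8% of the genes tested had a lower mean level than Mogat2, and in MG53-TG organoids 94.7% did. A single start event carried its FPKM. The annotated antisense gene Gm45012 overlaps Mogat2, and whether the reads were counted by strand is not given in the sources used here.

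Dgat2, on chr7:99153658-99182719 (GRCm38, minus strand), lies next to Mogat2 and encodes a diacylglycerol acyltransferase of the same protein family. Its level was 16.0, 17.0, 15.9 and 15.6 FPKM in the WT samples and 42.7, 52.0, 62.8 and 69.8 FPKM in the MG53-TG samples. The WT samples were nearly level (SD 0.602, n = 4), while the MG53-TG samples spread more (SD 12.0, n = 4). The log2 fold change was 1.73 (SE 0.15, limma adjusted p = 4.39e-05). The coding sequences of Dgat2 and Mogat2 shared no run longer than 14 bases and were identical at 58.9% of 997 aligned bases.

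Dgat1, on chr15:76502015-76511953 (GRCm38, minus strand), encodes the other diacylglycerol acyltransferase, a membrane-bound O-acyltransferase unrelated in sequence to DGAT2. Its summed end events came to 15.9, 21.3, 11.0 and 22.0 FPKM in the WT samples and to 57.0, 55.4, 68.9 and 92.9 FPKM in the MG53-TG samples. Every MG53-TG sample was above the highest WT sample. The log2 fold change was 1.92 (SE 0.24, limma adjusted p = 0.000352).

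The end events divided the Dgat1 signal among transcripts. The annotated full-length, protein-coding transcript has 17 exons, and its last exon (chr15:76502015-76502388) was listed at 10.7, 14.3, 9.71 and 13.1 FPKM in WT and at 50.0, 50.1, 63.0 and 77.2 FPKM in MG53-TG. A short transcript, annotated as processed and without a coding sequence, has 5 exons and ends inside the gene at chr15:76504170-76504369. That end was listed at 4.52, 5.76, 0.520 and 5.22 FPKM in the WT samples and at 0.0799, 0.0794, 0.0701 and 0.0787 FPKM in the MG53-TG samples. It was high in WT samples 1, 2 and 4, low in WT sample 3 and close to 0 in every MG53-TG sample. As a share of the end FPKM of the gene, it made up 28.4%, 27.1%, 4.72% and 23.7% in WT and from 0.0847% to 0.143% in MG53-TG.

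The difference in this share did not pass the threshold. The mean share was 21.0% in WT and 0.117% in MG53-TG (limma adjusted p = 0.106). Without WT sample 3 the adjusted limma p was 0.00547, so that sample decides the call. Among the 875 end shares tested, 0 (0%) passed and 124 had an unadjusted p under 0.05. The end of another processed transcript, at chr15:76503276-76503315, held 6.82% of the end FPKM in WT and 11.5% in MG53-TG (limma adjusted p = 0.584). A further internal end, at chr15:76504041-76504571, held 5.50% in WT sample 3, more than the short transcript's end in that sample. It held 0.259% to 0.623% in the other WT samples and 0.0918% to 0.206% in MG53-TG, and its share was not tested.

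Only part of the coding sequence that tells the transcripts apart is shown, from exons 4 and 5 of the full-length transcript. It was read from the GENCODE transcripts on GRCm38 and is written 5′ to 3′ on the minus strand. Within these exons, capitals mark the bases that the short transcript lacks, 28 at the start of exon 4 (chr15:76504544-76504571) and 32 at the start of exon 5 (chr15:76504370-76504401).
Dgat1 exon 4, chr15:76504486-76504571: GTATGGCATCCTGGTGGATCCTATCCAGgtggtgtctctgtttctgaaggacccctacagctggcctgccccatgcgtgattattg
Dgat1 exon 5, chr15:76504349-76504401: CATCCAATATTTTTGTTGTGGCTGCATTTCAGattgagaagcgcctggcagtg
Both exons are coding in the full-length transcript. After the lower-case bases of exon 5, the short transcript runs on through the next intron and ends within exon 6.

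**Figure D2:**
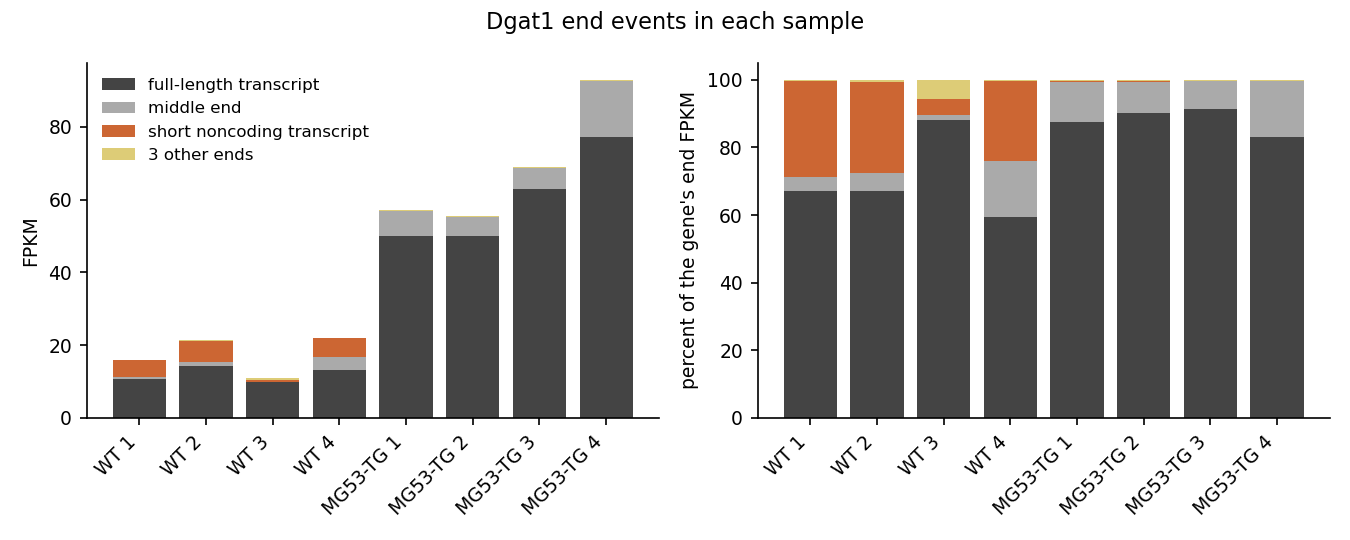
End events of Dgat1 in each of the 8 samples, as FPKM (left) and as percent of the end FPKM of the gene (right). Dark grey is the end of the full-length transcript and light grey that of another processed transcript. The orange part, the end of the short noncoding transcript, reaches 28.4% in WT sample 1 and 4.72% in WT sample 3, and is at most 0.143% in MG53-TG samples.

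Gpat3 and Gpat4 encode the microsomal glycerol 3-phosphate acyltransferases, which start the glycerol 3-phosphate route, and they moved in opposite directions. Gpat3 lies on chr5:100845713-100899102 (GRCm38, plus strand). No event in the files carries its identifier. The events at its exons are all named after Gm42987, a single-exon gene inside Gpat3, although their boundaries match exons of Gpat3 and none of Gm42987. Read by coordinates, Gpat3 was at 3.19, 3.36, 4.78 and 4.21 FPKM in WT and at 8.76, 9.37, 12.8 and 11.4 FPKM in MG53-TG. The lowest MG53-TG sample was above the highest WT sample, and the log2 fold change was 1.24 (SE 0.16, limma adjusted p = 0.000411).

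Gpat3 has several starts close together. The start exon at chr5:100846130-100846361 held 53.6% of its start FPKM in WT and 69.7% in MG53-TG, and the one at chr5:100846364-100846948 held 36.9% and 21.9%. Neither share differed beyond the spread between samples (limma adjusted p = 0.68 and 0.71), and MG53-TG sample 3 had close to 0 FPKM at the second start.

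Gpat4, on chr8:23171265-23208346 (GRCm38, minus strand), was at 7.81, 10.3, 8.95 and 9.35 FPKM in WT and at 6.71, 7.66, 4.20 and 4.27 FPKM in MG53-TG. The groups did not overlap, but MG53-TG sample 2 came close to WT sample 1. The log2 fold change was -0.62 (SE 0.19, limma adjusted p = 0.0261). The call was lost when any one of WT samples 2, 3 and 4 or MG53-TG samples 3 and 4 was left out, with adjusted p from 0.0540 to 0.0698. The share of its last exon among its 3 end events was 89.4% in WT and 71.7% in MG53-TG (limma adjusted p = 0.301). The coding sequences of Gpat3 and Gpat4 shared no run longer than 17 bases.

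Agpat2, on chr2:26593057-26604417 (GRCm38, minus strand), encodes the acyltransferase that makes phosphatidate and is known as the gene of a congenital lipodystrophy. It was at 10.3, 10.3, 10.0 and 9.98 FPKM in WT and at 21.3, 21.1, 26.7 and 17.0 FPKM in MG53-TG. The 4 WT samples were almost equal, and MG53-TG sample 3 was the highest. The log2 fold change was 1.00 (SE 0.13, limma adjusted p = 0.000511). Its main start held 95.4% of its start FPKM in WT and 93.0% in MG53-TG (limma adjusted p = 0.727). Among all 4317 start shares tested, 29 (0.672%) passed. Of the 8 genes only Agpat2 and Lpin2 had start shares among those tested, and none of these passed. Egfl7 and Gm20532 overlap Agpat2 on the opposite strand.

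Lpin2 and Lpin3 encode phosphatidate phosphatases, which make the diacylglycerol of the glycerol 3-phosphate route. Lpin2, on chr17:71182560-71249817 (GRCm38, plus strand), was at 8.26, 7.46, 7.57 and 8.31 FPKM in WT and at 6.89, 6.97, 9.30 and 9.19 FPKM in MG53-TG. MG53-TG samples 1 and 2 lay below and samples 3 and 4 above all WT samples. Its log2 fold change was 0.019, with a 95% interval from -0.27 to 0.31 (limma adjusted p = 0.915). Lpin3, on chr2:160880670-160906002 (GRCm38, plus strand), was at 4.34, 4.73, 4.97 and 4.17 FPKM in WT and at 4.73, 5.31, 8.78 and 9.46 FPKM in MG53-TG. Only MG53-TG sample 1 lay within the WT range. Here the log2 fold change was 0.49, with a 95% interval from 0.03 to 0.96 (limma adjusted p = 0.0789). Without MG53-TG sample 1 the adjusted p was 0.0261, and without sample 2 it was 0.0499.

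In the two-sided exact permutation test of each gene over 70 relabellings, Mogat2, Dgat1, Dgat2, Gpat3, Gpat4 and Agpat2 each had p = 0.0286, the smallest that 4 samples against 4 can give. The same exact test gave p = 0.0571 for Lpin3 and p = 0.771 for Lpin2.

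**Figure D3:**
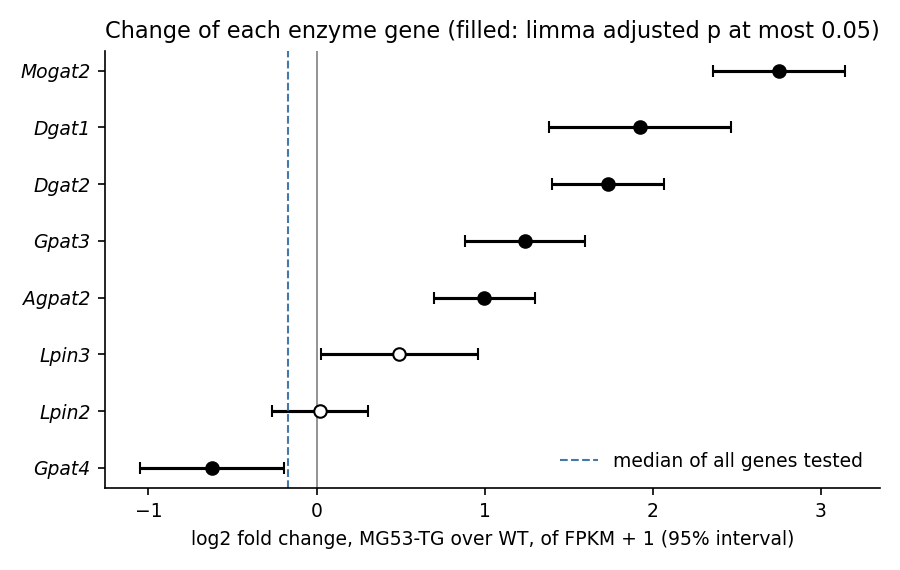
log2 fold change of FPKM + 1 (horizontal axis, MG53-TG over WT) of the 8 enzyme genes with its 95% interval. Filled points have a limma adjusted p of at most 0.05, and the dashed line is the median of all genes tested, -0.17. Mogat2 is highest at 2.75 and Gpat4 lowest at -0.62.

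The order of the levels, which FPKM gives per length, was not the same in the groups. In WT the order of the means was Dgat1, Dgat2, Mogat2, Agpat2, Gpat4, Lpin2, Lpin3 and Gpat3, from 17.6 ± 5.14 FPKM to 3.89 ± 0.743 FPKM (SD, n = 4). The sample ranges of neighbours in this order overlapped, except between Dgat2 and Mogat2 and between Lpin2 and Lpin3. In MG53-TG the order was Mogat2, Dgat1, Dgat2, Agpat2, Gpat3, Lpin2, Lpin3 and Gpat4, from 81.1 FPKM (samples at 63.3 to 100.9) to 5.71 ± 1.75 FPKM (SD, n = 4). Only the steps from Dgat2 to Agpat2 and from Agpat2 to Gpat3 were free of overlap. Mogat2 moved from the third place to the first, and Gpat4 from the fifth to the last.

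Ratios between the genes within a sample do not depend on scaling between samples and are given as a description. Mogat2 stood at 0.787 to 0.902 of the sum of Gpat3 and Gpat4 in WT samples and at 3.72 to 6.45 times that sum in MG53-TG samples. The ratio of Gpat3 to Gpat4 was 0.409, 0.326, 0.534 and 0.450 in WT and 1.31, 1.22, 3.05 and 2.67 in MG53-TG, so that Gpat4 was the higher gene in every WT sample and Gpat3 in every MG53-TG sample. The ratio of Dgat2 to Dgat1 overlapped between the groups, with 0.706 to 1.44 in WT and 0.748 to 0.937 in MG53-TG. The ratio of Lpin3 to Lpin2 was 0.502 to 0.656 in WT and 0.687 to 1.03 in MG53-TG.

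**Figure D4:**
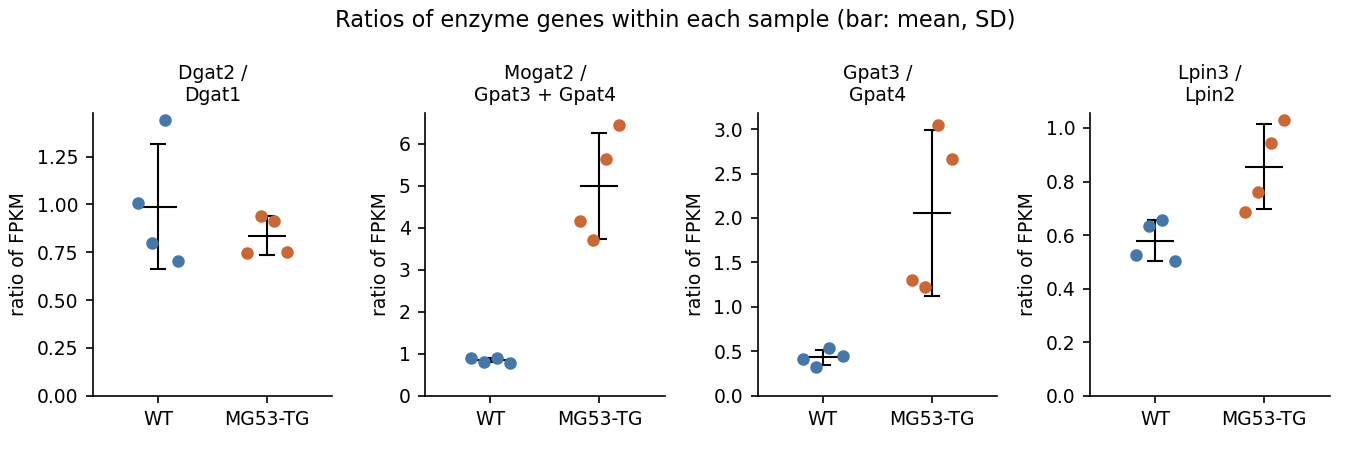
Ratio of FPKM between enzyme genes within each sample (vertical axes, from 0), with mean and SD over the 4 samples of a group. The ratios of Mogat2 to Gpat3 plus Gpat4, of Gpat3 to Gpat4 and of Lpin3 to Lpin2 do not overlap between WT and MG53-TG, and that of Dgat2 to Dgat1 does.

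Markers of enterocytes, the cells that absorb fat, moved with the risen enzymes. All 11 enterocyte markers, among them Alpi, Sis and Slc5a1, were higher in MG53-TG, with a median log2 fold change of 3.29. Their summed level was 240.1, 267, 278 and 250.4 FPKM in WT and 1664, 1817, 2346 and 2458 FPKM in MG53-TG. Of 8 stem cell markers, 6 were lower and none higher, and their summed level was 738, 607, 537 and 733 FPKM in WT and 318, 331, 98.6 and 60.9 FPKM in MG53-TG. MG53-TG samples 3 and 4, which were lowest in stem cell markers, were also the 2 highest MG53-TG samples in Mogat2, Dgat1, Dgat2, Gpat3, Lpin2 and Lpin3 and the 2 lowest in Gpat4. Agpat2 did not share this order, since it was lowest among MG53-TG samples in sample 4. In bulk samples, fewer cells of a type and less RNA per cell cannot be told apart, and the part of cell composition in these changes was not tested.

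Set against the 11 summed enterocyte markers of the same sample, a description added after seeing the data, Mogat2 stood at 4.07, 4.14, 4.46 and 4.26 FPKM per 100 FPKM of markers in WT and at 3.88, 3.48, 4.08 and 4.11 in MG53-TG. These values overlap narrowly, and when each marker was left out of the sum in turn, also after seeing the data, they overlapped in 7 of 11 sums and were all lower in MG53-TG in 4. Over these sums the Mogat2 difference, MG53-TG minus WT, ran from -1.41 to 0.63, so its direction depended on the marker left out. Dgat1 stood at 3.97 to 8.79 in WT and at 2.94 to 3.78 in MG53-TG, all lower, but the groups overlapped when Sis was left out of the sum. Dgat2 was lower on this scale with any 1 marker left out, with 5.71 to 6.68 in WT and 2.56 to 2.86 in MG53-TG. Agpat2, Gpat3, Gpat4, Lpin2 and Lpin3 were all lower per marker FPKM in every MG53-TG sample than in any WT sample. This held with any 1 marker left out. The marker sum itself rose, from a mean of 259 FPKM in WT to 2071 FPKM in MG53-TG. A gene that rose clearly less than this sum, held its level or fell must come out lower on this scale. Only 81 of the 10254 genes tested rose more than Mogat2. The scale was not applied to all genes, so the lower values do not set these enzymes apart from other genes.

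Adipocytes also express these enzymes, and their defining markers were close to 0. Adiponectin (Adipoq) was at most 0.470 FPKM and Plin1 at most 0.119 FPKM in any sample, and Lep had no entry. Of the 7 adipocyte markers only Cidec, a lipid droplet protein gene that enterocytes express too, passed the filter on low values. It was higher in MG53-TG, at 12.2 to 15.3 FPKM against 3.53 to 4.98 FPKM in WT (limma adjusted p = 5.74e-05). Of 6 mesenchymal markers 2 were higher, with summed levels of 1.80 to 3.24 FPKM in WT and 1.31 to 5.58 FPKM in MG53-TG. The collagen genes Col1a1, Col1a2 and Col3a1 had no value in MG53-TG sample 1, so its sum of 1.31 FPKM lacks them, and the 2 calls, of Col1a2 and Col3a1, rest on 3 MG53-TG samples. The 5 immune markers summed to 3.75 to 9.17 FPKM in WT and to 0.469 to 1.28 FPKM in MG53-TG. Nearly all of this was Cd68, a macrophage lysosome gene that was lower in MG53-TG (limma adjusted p = 0.000534), while Ptprc and Cd3e had no entry or were close to 0, and Adgre1 and Itgam had no signal.

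Other genes around glycerolipid synthesis and turnover were read from a list of 57 genes in 5 role groups. Of the 48 that could be tested, 14 rose, 9 fell and 25 did not pass, with a median log2 fold change of 0.14, beside 15.5% higher, 29.3% lower and a median of -0.17 over all genes tested. No test set the list or its role groups against all genes, so the counts below are descriptions to be read beside those shares by direction. Of 8 tested genes grouped with the same steps, none rose and 4 fell, beside 15.5% higher and 29.3% lower over all genes tested. Those that fell were Gpam, Lpin1, Agpat4 and Agpat5. The group also holds Soat2, a sterol acyltransferase gene whose enzyme carries out none of these steps and which did not pass (limma adjusted p = 0.0840). Gpam, the mitochondrial glycerol 3-phosphate acyltransferase, was at 17.5 to 23.2 FPKM in WT and 6.61 to 12.9 FPKM in MG53-TG, with a log2 fold change of -0.98 (SE 0.19, limma adjusted p = 0.00360). Lpin1, the third lipin, was at 6.46 to 7.69 FPKM in WT and 1.24 to 3.61 FPKM in MG53-TG, with a log2 fold change of -1.32 (SE 0.21, limma adjusted p = 0.00136). Agpat4 fell, with 3.37 to 5.67 FPKM in WT and at most 0.856 FPKM in MG53-TG (limma adjusted p = 0.000149). Agpat1, another acylglycerol-phosphate acyltransferase gene, was at 23.5 to 33.6 FPKM in WT and at most 38.8 FPKM in MG53-TG, with overlapping groups (limma adjusted p = 0.467). Tmem68, a DGAT-independent triglyceride synthase gene, was at 7.26 to 8.77 FPKM and 5.23 to 7.68 FPKM (limma adjusted p = 0.198). Mogat1 was detected in WT sample 2 alone, at 0.153 FPKM.

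The genes grouped under glycerol 3-phosphate supply split. Gpd1, the cytosolic glycerol 3-phosphate dehydrogenase, rose, with 35.5 to 45.5 FPKM in WT and 223 to 267 FPKM in MG53-TG, a log2 fold change of 2.51 (SE 0.10, limma adjusted p = 8.08e-07). Gk, glycerol kinase, rose as well and Gpd1l fell. Gpd2, whose mitochondrial enzyme uses glycerol 3-phosphate rather than supplying it, did not pass the threshold. Of 20 tested genes of the phospholipid branch, 6 rose and 3 fell, beside 15.5% higher and 29.3% lower over all genes tested. Chpt1, a cholinephosphotransferase that draws on the same diacylglycerol, rose, with 6.11 to 17.1 FPKM in WT and 22.4 to 41.6 FPKM in MG53-TG (limma adjusted p = 0.00259). Mboat1, a lysophospholipid acyltransferase, fell, with 18.4 to 22.6 FPKM in WT and 0.698 to 2.48 FPKM in MG53-TG (limma adjusted p = 3.23e-05). Of 10 tested genes of diacylglycerol and phosphatidate turnover, 4 rose and 1 fell, beside the same 15.5% and 29.3%. Dgkq, a diacylglycerol kinase, rose, with 1.93 to 2.63 FPKM in WT and 5.35 to 11.0 FPKM in MG53-TG (limma adjusted p = 0.000421). By end events alone Dgkq did not pass (adjusted p = 0.0981). Of the 6 genes that hydrolyse mono- and diacylglycerol, 2 rose and none fell, again beside 15.5% higher and 29.3% lower over all genes tested.

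**Figure D5:**
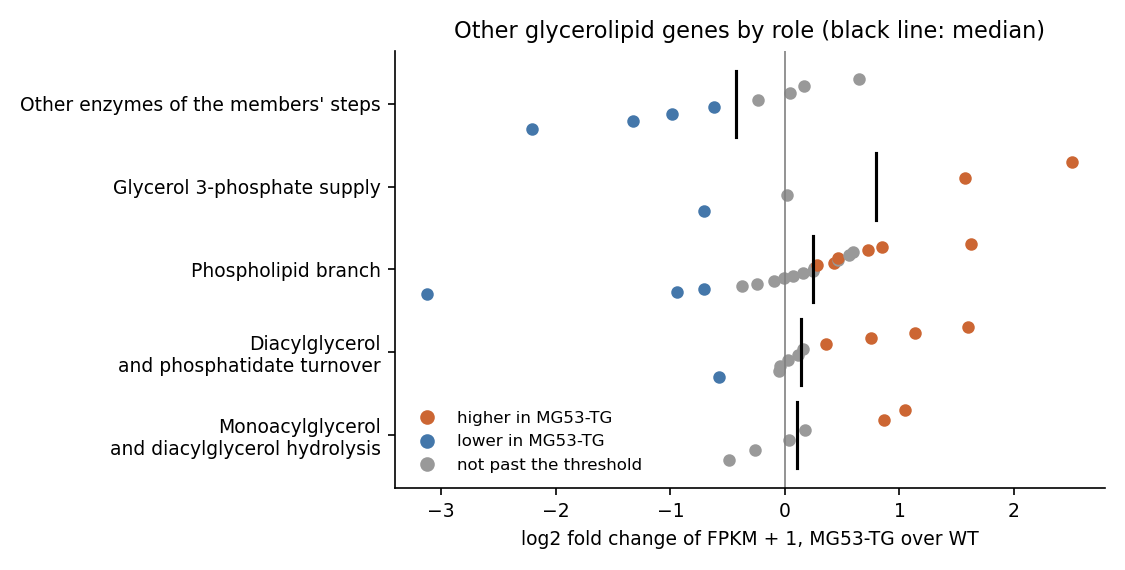
log2 fold change of FPKM + 1 (horizontal axis, MG53-TG over WT) of the 48 tested genes of the glycerolipid list by role group. Orange points rose, blue points fell and grey points did not pass the threshold, and black lines are medians. Of the 8 genes grouped with the same steps none rose, beside 15.5% of all genes tested, and Gpd1 at 2.51 is the highest of the list.

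The genes whose levels followed the 3 most changed enzymes most closely over the 8 samples are named as a description, since the 2 groups alone make such correlations high. For Mogat2 they were Gna11 and Cyp2c65 (Pearson r of 0.9997 and 0.999 on the log2 scale), for Dgat2 Btnl1 and Smim24 (r of 0.999 and 0.997) and for Dgat1 Gpr157 and Tmem41a (r of 0.993 and 0.989). Of the 9964 genes compared, 583 had an r of at least 0.95 with Mogat2, 569 with Dgat2 and 225 with Dgat1.

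RefSeq promoter windows on GRCm38.p6, each of 300 bases and mostly before a start, were at hand for Agpat2, Gpat3, Lpin2 and Lpin3, 7 windows in all. They were searched on both strands for AGGTCA, the core motif that nuclear receptors bind, and for its direct repeat with 1 base between, AGGTCANAGGTCA. None of the 7 windows held either motif. Of all 32851 windows, 16.3% held the first and 0.0396% the second, which contains the first. Promoters of Mogat2, Dgat1, Dgat2 and Gpat4 were not analysed here.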

How the data were processed

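The authors trimmed reads with Cutadapt 1.9.1 and mapped them with HISAT2 2.0.1, and the submitters' processing notes name HTSeq 0.6.1, DESeq2 and the build mm10. The deposited FPKM are per transcript event and sample, and the tool that made the event tables is not given in the sources used here. Exact duplicates were dropped. A gene's value was the sum of its start events, or of its end events where that mean was higher, over events with its identifier whose inner boundary matched one of its exons in GENCODE vM21 (85.3% of start and end events). A gene absent from a sample was set to 0, or to missing where the other samples of that group reached a median of 0.5 FPKM. Groups came from the labels.

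limma 3.58.1 in R 4.3.3 (lmFit, then eBayes with trend) was run on log2(FPKM + 1) for genes whose mean reached 0.5 FPKM. P-values were adjusted by Benjamini-Hochberg and called at 0.05. This scale understates the changes of low genes. Start and end shares were compared with limma on the arcsine square root scale, for events in all samples with a gene total of at least 2 FPKM and a mean share of 5% to 95%. No skipped exon of the 8 genes met these limits. The fits were tried on simulated data, but the outcome is not reported here and no result rests on it. Coding sequences were aligned with Biopython 1.88. Planned comparisons of protein sequences were not run, as no protein table was used here.

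The 8 genes, the lists and the tests were chosen with earlier results of these data known. Of the marker lists, 2 genes are not reported here and were left out of the sums. Named in full were the 8 genes; of the list, the 3 largest rises and 3 largest falls past the threshold without overlap, at most 2 per role group, and Tmem68, Lpin1, Gpam, Agpat1 and Mogat1; and the 2 genes most alike to each of the 3 most changed enzymes. Alternatives were another pseudocount, filters, scalings, event choices, sample weights, a replicate block, leaving out each sample, and assignment by exon coordinates.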

Additional observations from a re-analysis of the deposited data

Results flagged for a closer look

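Of 43 groups of 4 samples tested for a sample far from the rest, 2 had one, against the 2.15 that chance gives at 1 in 20. Agpat4 was at 0.856 FPKM in MG53-TG sample 1, above the other MG53-TG samples. Mogat1 was at 0.153 FPKM in WT sample 2 and had no entry in the other WT samples. None of the 8 enzyme genes had such a sample.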

How the results depend on the processing

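The number of the 7 genes past the threshold was 5 under each alternative that keeps all samples, except 6 with exon coordinates, where Gpat3 is added, and it was 4 to 6 when 1 sample was left out. Mogat2, Dgat1, Dgat2, Gpat3 and Agpat2 passed under every alternative run. Replicate numbers did not pair the samples (correlations of deviations from -0.050 to 0.094), and with a replicate block 5 of the genes still passed, 4195 genes passed in all, and no start share passed (0, against 29 without the block). Lpin2, which did not pass, changed sign when 1 sample was left out, with log2 fold changes from -0.045 to 0.083. When 1 sample was left out, the number of start shares past the threshold ranged from 12 (without WT sample 4 or MG53-TG sample 4; 18 without MG53-TG sample 1) to 38 and that of end shares from 0 to 3, and the cause was not tested. Across the alternatives run by gene identifier, between 3462 and 4863 genes passed (up to 5118 in the fits by exon coordinates that were run for Gpat3), and between 16 and 28 of the glycerolipid list. Depth is unknown, so no counting error was computed.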
